A study of Mus musculus with 10 samples.

Results

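The 10 genes examined here carry serotonin from its synthesis to its breakdown, and were taken by symbol from the 54532 genes of the count table. Tph1 and Ddc make serotonin, Gch1, Pts, Spr and Qdpr make and recycle the cofactor tetrahydrobiopterin, Slc18a1 loads serotonin into vesicles, Slc6a4 takes it back up, and Maoa and Maob break it down. Messenger RNA was compared between cells with high GFP (GUCY2Chi, 5 libraries) and cells with medium GFP (GUCY2Cmed, 5 libraries) sorted from the small intestinal epithelium of 10-week-old Gucy2c-GFP reporter mice of the CD1/ICR stock. All animals carried the same reporter, in which the promoter of Gucy2c, the guanylyl cyclase C receptor, drives GFP, and no treatment is named. The litter-matched mice bear the numbers 2, 7, 12, 14 and 15 in both groups, which were taken to mark the same animal, and each library came from 20000 cells. The sort went by reporter brightness, so each group is a mixture of epithelial cells, and fewer cells of a type cannot be told apart from less RNA per cell.

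Most of the body's serotonin is made by enterochromaffin cells, a class of enteroendocrine cell scattered through the gut epithelium. Tryptophan hydroxylase (Tph1), the rate-limiting enzyme, adds a hydroxyl group to tryptophan with the help of tetrahydrobiopterin, and aromatic amino acid decarboxylase (Ddc) turns the product into serotonin. Serotonin released toward the mucosa is taken up by neighbouring absorptive enterocytes through the serotonin transporter (Slc6a4) and oxidised there by monoamine oxidases on the mitochondrial outer membrane.

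Of the 10, all of which were abundant enough to be tested, 4 were higher in GUCY2Chi cells (Tph1, Slc18a1, Gch1 and Qdpr) and 3 were lower (Maob, Slc6a4 and Spr) by edgeR's quasi-likelihood test at a Benjamini-Hochberg adjusted p under 0.01. Among all 15703 genes tested, 13.9% were higher and 8.79% were lower by the same rule. Ddc, Maoa and Pts did not pass. The levels of 5 genes in GUCY2Chi libraries lay above every GUCY2Cmed library and those of 4 lay below, which held for 16.7% and 13.2% of all genes tested. Pts was the gene whose groups overlapped. The median log2 fold change of the 10 genes was 0.68, against 0.09 over all genes tested.

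Gucy2c itself ranged from 548 to 1756 cpm (counts per 1000000, normalized for library size and composition) in GUCY2Chi libraries and from 322 to 483 in GUCY2Cmed libraries, in the direction of the labels (log2 fold change 1.71 ± 0.32 SE, edgeR adjusted p = 0.00187). Summed over 10 enteroendocrine markers, all higher in GUCY2Chi cells, the level ranged from 5803 to 33367 cpm against 35.2 to 202 cpm. Of 9 enterochromaffin markers 7 were higher, and the sum of the list was 2927 to 44642 against 70.0 to 113 cpm. Most of that sum was Chgb, at 2465 to 41812 against 45.6 to 87.0 cpm. Piezo2 was too low to be tested, at 0.151 cpm or less. Adra2a had the other direction and did not pass, at 2.46 to 5.54 against 5.97 to 8.23 cpm (log2 fold change -0.72, edgeR adjusted p = 0.0446). The sum of 24 enterocyte markers, of which 7 were lower and none higher in GUCY2Chi cells, was 66626 to 87143 cpm in GUCY2Cmed libraries. In GUCY2Chi libraries it was 4007 to 5616 cpm in mice 2, 7 and 14 but 35387 and 36317 cpm in mice 12 and 15. On this list mice 12 and 15 therefore stand apart from the others of their group. For Ddc, Slc6a4, Maoa, Maob and some other pathway genes, results are also given without these 2 libraries.

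Promoter sequences are shown for the genes at the ends of the division, Tph1 and Gch1 on the side of synthesis and Slc6a4 and Maoa on the side of clearance. RefSeq (GRCm38.p6) lists 250 bases before to 50 after a start for 8 of the 10 genes, in 10 windows, and Slc18a1 and Maob were not matched. Tph1 has 2 listed starts, of which the upstream one is the gene start in the count table and the other lies inside the gene. Each sequence reads 5′ to 3′ on the strand of its gene. Capitals mark matches on either strand to a TATA box (TATAAA), a GC box (GGGCGG), a neurogenic E-box (CAGATG), a homeodomain site (TAATTA) or part of an HNF1 site (GTTAAT).
Tph1, upstream start, chr7:46672488-46672787, minus strand: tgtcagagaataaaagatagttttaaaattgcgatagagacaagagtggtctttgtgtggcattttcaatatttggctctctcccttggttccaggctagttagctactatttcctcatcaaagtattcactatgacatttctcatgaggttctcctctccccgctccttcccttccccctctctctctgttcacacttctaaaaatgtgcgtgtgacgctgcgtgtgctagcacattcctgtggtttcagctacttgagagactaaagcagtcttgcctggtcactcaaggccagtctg
Tph1, downstream start, chr7:46667328-46667627, minus strand: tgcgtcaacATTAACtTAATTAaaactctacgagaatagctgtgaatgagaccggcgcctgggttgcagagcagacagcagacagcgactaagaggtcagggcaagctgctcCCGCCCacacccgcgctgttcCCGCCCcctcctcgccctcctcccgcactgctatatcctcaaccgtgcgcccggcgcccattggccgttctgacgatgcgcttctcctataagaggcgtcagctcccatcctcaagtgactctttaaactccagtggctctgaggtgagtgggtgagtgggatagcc
Gch1, chr14:47189364-47189663, minus strand: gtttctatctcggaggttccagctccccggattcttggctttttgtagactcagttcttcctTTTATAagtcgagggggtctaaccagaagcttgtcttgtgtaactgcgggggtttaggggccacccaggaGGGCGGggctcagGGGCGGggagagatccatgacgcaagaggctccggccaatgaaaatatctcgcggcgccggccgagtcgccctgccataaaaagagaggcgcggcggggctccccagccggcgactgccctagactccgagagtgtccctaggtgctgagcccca
Slc6a4, chr11:76998347-76998646, plus strand: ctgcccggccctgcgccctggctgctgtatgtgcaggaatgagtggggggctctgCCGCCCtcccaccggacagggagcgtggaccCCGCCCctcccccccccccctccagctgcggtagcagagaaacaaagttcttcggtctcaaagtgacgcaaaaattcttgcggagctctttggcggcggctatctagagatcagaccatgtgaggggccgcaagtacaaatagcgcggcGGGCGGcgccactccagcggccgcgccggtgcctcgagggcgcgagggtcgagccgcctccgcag
Maoa, chrX:16619448-16619747, plus strand: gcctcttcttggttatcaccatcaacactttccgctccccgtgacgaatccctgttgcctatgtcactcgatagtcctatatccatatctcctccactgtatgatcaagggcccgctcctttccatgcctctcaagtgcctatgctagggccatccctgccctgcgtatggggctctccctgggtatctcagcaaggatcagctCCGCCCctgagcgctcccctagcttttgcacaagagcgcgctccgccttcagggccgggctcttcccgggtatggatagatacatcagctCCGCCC
The upstream Tph1 window held none of the 5 motifs, with 45.0% G and C. The downstream Tph1 window held the GC box at positions 113 and 134 and the TAATTA and GTTAAT letters near its far end. GC boxes were also found in Gch1 at positions 133 and 146, beside a TATA match at 63, in Slc6a4 at 56, 87 and 236, and in Maoa at 205 and 295. In all, 7 of the 10 windows held a GC box, and 35.7% of the 32851 promoters in the table did. For the other motifs these shares were 13.6% for TATAAA, 17.2% for CAGATG, 5.29% for TAATTA and 7.10% for GTTAAT. A match of letters is a description of the sequence and no evidence that a factor binds.

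Serotonin synthesis was measured through Tph1 and Ddc. Values are given as normalized cpm in the order of mice 2, 7, 12, 14 and 15. In GUCY2Chi cells Tph1 (chromosome 7, 46644641 to 46672537 on GRCm38) stood at 2764, 3066, 2326, 4077 and 936 cpm. In GUCY2Cmed cells it stood at 2.99, 4.01, 3.81, 4.88 and 4.19 cpm. Every GUCY2Chi library was thus far above every GUCY2Cmed library, with mouse 15 the lowest and mouse 14 the highest of the GUCY2Chi group. The group means were 2634 ± 1147 and 3.98 ± 0.680 cpm (SD, n = 5 each), a 660-fold difference (log2 fold change 9.37 ± 0.48 SE, edgeR adjusted p = 1.52e-06). The lowest raw Tph1 count in a GUCY2Cmed library was 32 reads, so the gene was detected there and was not at the floor.

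Ddc (chromosome 11, 11814101 to 11898144), which also makes dopamine in other cells, was abundant in both groups. It stood at 1314, 1138, 850, 2235 and 703 cpm in GUCY2Chi cells. The GUCY2Cmed levels were 696, 580, 356, 524 and 611 cpm. The groups did not overlap, but the GUCY2Chi library of mouse 15 was only just above the GUCY2Cmed library of mouse 2. The difference of 2.26-fold was in the same direction in 5 of 5 mice and did not pass the threshold (log2 fold change 1.17 ± 0.33 SE, edgeR adjusted p = 0.0146). Without the GUCY2Chi library of mouse 15 it passed (1.35, adjusted p = 0.00482), as it did without those of mice 12 and 15 (1.52 ± 0.26 SE, adjusted p = 0.00105). It did not pass with both libraries of mice 12 and 15 left out (1.38, adjusted p = 0.0109), nor in the other 9 fits without 1 library, with the lowest value without the GUCY2Chi library of mouse 14 (0.86, adjusted p = 0.0316). Within a library, the raw count of Tph1 was 1.33 to 2.74 times that of Ddc in GUCY2Chi cells and 0.00430 to 0.0107 times in GUCY2Cmed cells. Both enzymes of the route were therefore abundant in GUCY2Chi cells, whereas in GUCY2Cmed cells Ddc was present nearly without Tph1.

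**Figure D1:**
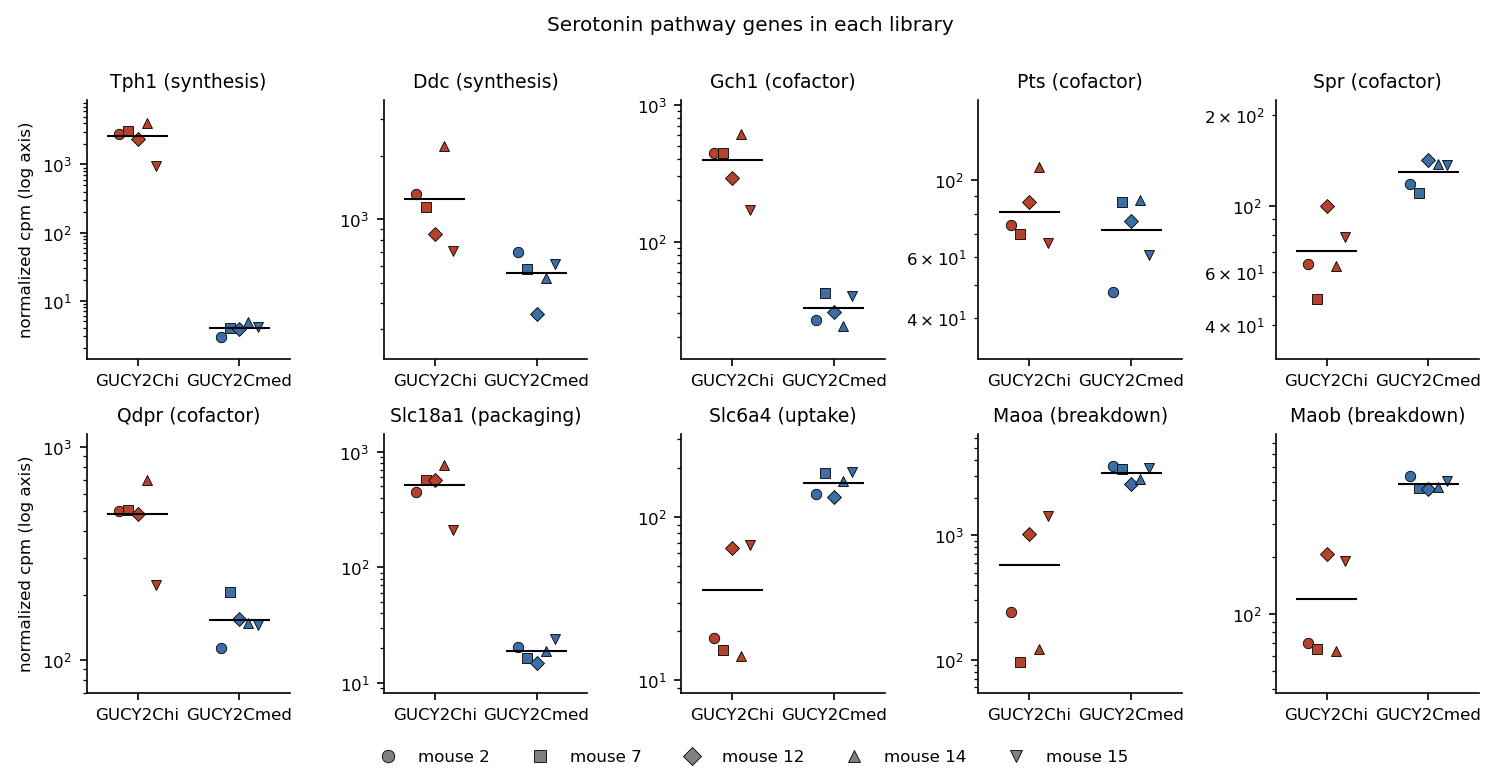
Normalized cpm (log axis, a different scale in each panel) of each of the 10 genes in the 5 GUCY2Chi and 5 GUCY2Cmed libraries, with a symbol per mouse and a horizontal line at the group mean. Tph1 separates the groups by 660-fold, Pts overlaps, and the GUCY2Chi libraries of mice 12 and 15 lie above the other 3 of their group for Slc6a4, Maoa and Maob.

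Tetrahydrobiopterin is built by GTP cyclohydrolase (Gch1), 6-pyruvoyltetrahydropterin synthase (Pts) and sepiapterin reductase (Spr), and the oxidised cofactor is restored by dihydropteridine reductase (Qdpr). These 4 genes did not move together, since the entry enzyme and the recycling enzyme were higher in GUCY2Chi cells, the middle step overlapped and the last step was lower. Gch1 (chromosome 14, 47153895 to 47189413), the rate-limiting step, was at 446, 446, 293, 612 and 170 cpm in GUCY2Chi cells. It was at 26.8, 42.4, 30.4, 24.4 and 39.9 cpm in GUCY2Cmed cells. The lowest GUCY2Chi library, again that of mouse 15, was above all GUCY2Cmed libraries. The means of 393 ± 168 and 32.8 ± 7.99 cpm (SD, n = 5 each) differed beyond the spread of either group (log2 fold change 3.59 ± 0.34 SE, edgeR adjusted p = 2.96e-05).

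Qdpr (chromosome 5, 45434021 to 45450236) followed Gch1 in direction. It was at 496, 505, 483, 695 and 224 cpm in GUCY2Chi cells and at 114, 208, 155, 149 and 145 cpm in GUCY2Cmed cells. The group ranges came close, with the GUCY2Chi library of mouse 15 just above the GUCY2Cmed library of mouse 7, and did not overlap. The difference was 3.12-fold (log2 fold change 1.64 ± 0.28 SE, edgeR adjusted p = 0.00129).

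Pts (chromosome 9, 50521617 to 50528724) was at 74.4, 70.0, 86.8, 109 and 66.1 cpm in GUCY2Chi cells. In GUCY2Cmed cells it was at 47.6, 86.8, 76.4, 87.8 and 60.9 cpm. The ranges overlapped widely, and Pts was higher in GUCY2Chi cells in 4 of 5 mice. Its log2 fold change was 0.18 ± 0.21 SE (edgeR adjusted p = 0.550), and the exact two-sided permutation test over the 10 libraries gave p = 0.429.

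Spr (chromosome 6, 85130176 to 85137766) had the opposite direction from Gch1. Its levels were 63.9, 48.7, 99.8, 62.9 and 78.4 cpm in GUCY2Chi cells. They were 118, 110, 142, 138 and 137 cpm in GUCY2Cmed cells. All GUCY2Chi libraries lay below all GUCY2Cmed libraries, and the highest of them was that of mouse 12. The means of 70.7 ± 19.3 and 129 ± 14.2 cpm (SD, n = 5 each) differed 1.82-fold (log2 fold change -0.86 ± 0.19 SE, edgeR adjusted p = 0.00524). With each library left out in turn, this call was kept in 3 of 10 fits. It was lost when the GUCY2Chi library of mouse 2, 7 or 14 or the GUCY2Cmed library of mouse 2, 12, 14 or 15 was absent, at adjusted p values up to 0.0219.

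The balance of the cofactor genes within a library showed the same contrast without any scaling between libraries. The raw count of Gch1 was 2.17 to 9.72 times that of Spr in GUCY2Chi cells and 0.177 to 0.386 times in GUCY2Cmed cells. Relative to Qdpr it was 0.605 to 0.900 times and 0.163 to 0.276 times. Relative to Gchfr, which encodes the feedback regulator of the cyclohydrolase, the Gch1 count was 14.4 to 101 times in GUCY2Chi cells and 1.20 to 3.03 times in GUCY2Cmed cells. None of these ranges overlapped between groups. Between Gch1 and Tph1 the ratio was 0.126 to 0.181 in GUCY2Chi cells, a narrow band over libraries whose Tph1 levels spread 4.35-fold, and 5.00 to 10.6 in GUCY2Cmed cells.

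Vesicular packaging was measured through Slc18a1 (chromosome 8, 69037711 to 69089235), the vesicular monoamine transporter VMAT1 of endocrine cells. It was at 449, 566, 564, 772 and 209 cpm in GUCY2Chi cells. The GUCY2Cmed levels were 20.4, 16.6, 14.9, 18.8 and 23.9 cpm. The groups were far apart, and mouse 15 had the lowest GUCY2Chi level, as for Tph1 and Gch1, and the highest GUCY2Cmed level. The means of 512 ± 206 and 18.9 ± 3.50 cpm (SD, n = 5 each) differed 27.0-fold (log2 fold change 4.76 ± 0.35 SE, edgeR adjusted p = 5.20e-06).

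Slc18a1 shares 590 bases with Atp6v1b2 on the opposite strand, which encodes a subunit of the vacuolar proton pump. Atp6v1b2 was at 435 ± 154 cpm in GUCY2Chi and 118 ± 11.2 cpm in GUCY2Cmed cells (SD, n = 5 each; log2 fold change 1.89, edgeR adjusted p = 2.14e-04). Whether the counting used strand is not given in the sources used here, so reads from the shared stretch cannot be assigned. Across libraries the Slc18a1 count was 0.787 to 1.71 times that of Atp6v1b2 in GUCY2Chi cells and 0.131 to 0.199 times in GUCY2Cmed cells. Antisense genes and pseudogenes that overlap Ddc, Gch1, Qdpr, Slc18a1 or Slc6a4 were each at or below 1.15 cpm in every library.

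The related transporter Slc18a2 (VMAT2), which neurons use, was also higher in GUCY2Chi cells, at 40.3 ± 26.2 against 1.32 ± 0.116 cpm (SD, n = 5 each; log2 fold change 4.92 ± 0.49 SE, edgeR adjusted p = 3.61e-05). The raw Slc18a1 count was 8.99 to 27.8 times that of Slc18a2 in GUCY2Chi cells and 9.86 to 18.7 times in GUCY2Cmed cells, and these ranges overlapped. The ratio of Tph1 to Slc18a1 did differ between the groups, at 4.12 to 6.16 in GUCY2Chi cells and 0.147 to 0.259 in GUCY2Cmed cells.

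Uptake was measured through Slc6a4 (chromosome 11, 76998603 to 77032340). It was at 18.3, 15.3, 64.5, 14.2 and 67.8 cpm in GUCY2Chi cells. In GUCY2Cmed cells it was at 139, 187, 133, 166 and 189 cpm. No GUCY2Chi library reached the lowest GUCY2Cmed library, and mice 12 and 15 were clearly above the other 3 of their group. The means of 36.0 ± 27.6 and 163 ± 26.0 cpm (SD, n = 5 each) differed 4.52-fold (log2 fold change -2.18 ± 0.47 SE, edgeR adjusted p = 0.00407). With each library left out in turn the call was kept in 5 of 10 fits, and was lost without the GUCY2Chi library of mouse 2 or 7 or the GUCY2Cmed library of mouse 2, 12 or 15, at adjusted p values up to 0.0151. Without the GUCY2Chi libraries of mice 12 and 15 the log2 fold change was -3.32 ± 0.20 SE (adjusted p = 1.76e-06).

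Breakdown was measured through the neighbouring genes Maoa (chromosome X, 16619698 to 16687818), whose enzyme prefers serotonin, and Maob (chromosome X, 16709282 to 16817366). Maoa was at 241, 96.5, 1013, 121 and 1424 cpm in GUCY2Chi cells. The GUCY2Cmed levels were 3582, 3378, 2566, 2802 and 3465 cpm. The groups did not overlap, but within the GUCY2Chi group mice 12 and 15 were several times above the rest. The means of 579 ± 604 and 3159 ± 447 cpm (SD, n = 5 each) differed 5.45-fold, and this difference did not pass the threshold (log2 fold change -2.45 ± 0.70 SE, edgeR adjusted p = 0.0168). Without the GUCY2Chi library of mouse 15 the log2 fold change was -3.07 (adjusted p = 0.00486), and without those of mice 12 and 15 it was -4.35 ± 0.36 SE (adjusted p = 1.09e-05). With the mouse number as a block it was -3.28 in edgeR (adjusted p = 0.0159) and passed in limma-voom (-3.36, adjusted p = 0.00445).

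Maob had the same direction with less spread. It was at 70.1, 65.3, 207, 63.1 and 191 cpm in GUCY2Chi cells and at 536, 467, 460, 470 and 507 cpm in GUCY2Cmed cells. All GUCY2Chi libraries were below all GUCY2Cmed libraries, and mice 12 and 15 were again the highest of their group. The means of 119 ± 73.1 and 488 ± 32.2 cpm (SD, n = 5 each) differed 4.09-fold (log2 fold change -2.03 ± 0.37 SE, edgeR adjusted p = 0.00174). Without the GUCY2Chi libraries of mice 12 and 15 the log2 fold change was -2.86 ± 0.16 SE (adjusted p = 1.23e-06). The raw count of Maoa was 5.58 to 7.23 times that of Maob in GUCY2Cmed cells and 1.48 to 7.44 times in GUCY2Chi cells. The lowest of these ratios were in mice 2, 7 and 14, at 3.44, 1.48 and 1.91.

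For each of the 9 genes whose groups did not overlap, the exact two-sided permutation test over the 10 libraries gave p = 0.00794, which is the smallest that 5 against 5 libraries allow. This value follows from the lack of overlap and adds nothing to it. The permutation did not use the pairing by mouse. Leaving out the GUCY2Chi libraries of mice 12 and 15, 5 genes were higher and 4 were lower, Ddc and Maoa having been added, while 17.9% and 14.4% of all genes tested were called in each direction. These libraries were the highest of their group for Maoa, Slc6a4 and Maob and the lowest for Ddc, so larger differences for these genes follow from leaving them out. With both libraries of these mice left out, 4 genes were higher and 4 were lower, Maoa passing and Ddc not. In that fit 1738 of 14816 genes tested were higher and 1581 were lower. The plot of log2 fold changes shows that each gene kept its direction in the fits drawn and that Maoa, Slc6a4 and Maob moved most.

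**Figure D2:**
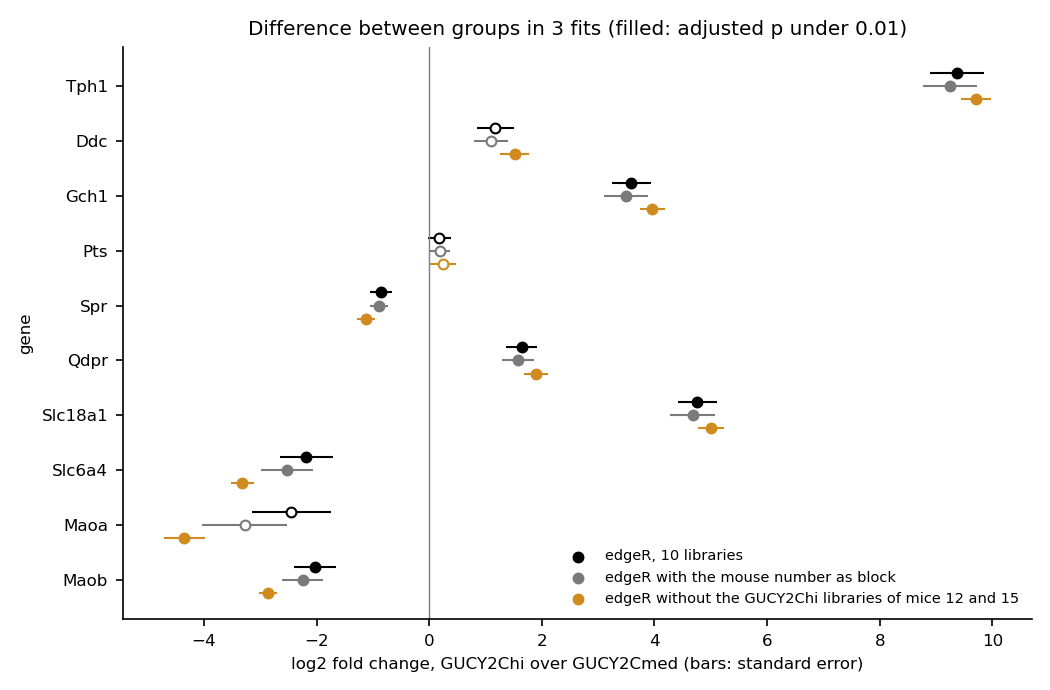
Log2 fold change of GUCY2Chi over GUCY2Cmed (bars, standard error) for the 10 genes in 3 fits, with filled points at an adjusted p under 0.01. Without the GUCY2Chi libraries of mice 12 and 15, Maoa moves from -2.45 to -4.35 and Ddc and Maoa become filled, while Pts stays near 0 in each.

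The enterocyte marker sum varied between GUCY2Chi libraries together with the clearance genes. As a percent of the GUCY2Cmed mean, the sum was 6.88, 5.04, 44.6, 7.07 and 45.7 in mice 2, 7, 12, 14 and 15. Maoa was at 7.63, 3.06, 32.1, 3.82 and 45.1% of its GUCY2Cmed mean. Slc6a4 was at 11.2, 9.40, 39.6, 8.75 and 41.7%, and Maob at 14.4, 13.4, 42.4, 12.9 and 39.2%. All 3 genes were thus highest in mice 12 and 15, as the enterocyte markers were. Spr spread less, at 49.6, 37.8, 77.5, 48.9 and 60.9%. The part of the enterocyte transcripts in these differences was not tested.

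Set against the enterocyte marker sum of the same library, the ranges of the clearance genes overlapped between groups. Per 1000 cpm of that sum, Maoa was 21.5 to 44.1 cpm in GUCY2Chi and 32.8 to 50.7 cpm in GUCY2Cmed libraries. The values were 1.82 to 3.82 against 1.59 to 2.80 cpm for Slc6a4 and 5.27 to 16.3 against 5.85 to 7.01 cpm for Maob. For Maob the GUCY2Chi libraries of mice 2, 7 and 14 (12.8, 16.3 and 11.2 cpm) lay above the GUCY2Cmed range. Those of mice 12 and 15 (5.85 and 5.27 cpm) did not. For Slc6a4 mice 2 and 7 (3.34 and 3.82 cpm) lay above it. For Maoa mice 7, 12 and 14 (24.1, 28.6 and 21.5 cpm) lay below it. Spr was higher on this scale in every GUCY2Chi library, at 2.16 to 12.1 against 1.35 to 1.81 cpm. Of the enterocyte markers themselves, Apoa1, an apolipoprotein of absorptive cells and the most abundant of the list, was at 5748 ± 6267 cpm in GUCY2Chi and 25124 ± 4203 cpm in GUCY2Cmed cells (SD, n = 5 each; edgeR adjusted p = 0.0466).

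**Figure D3:**
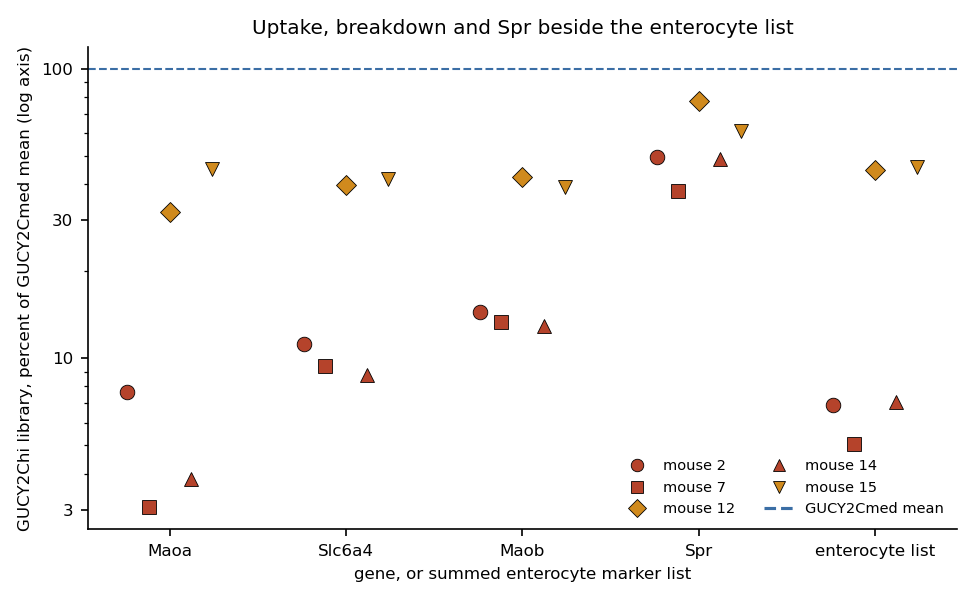
Level in each GUCY2Chi library as a percent of the GUCY2Cmed mean (log axis, dashed line at 100) for Maoa, Slc6a4, Maob, Spr and the sum of 24 enterocyte markers. For Maoa, Slc6a4, Maob and the marker sum, mice 12 and 15 lie between 32.1 and 45.7% and the other 3 mice at 14.4% or less, while Spr runs from 37.8 to 77.5%.

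The synthesis genes were set in the same way against the enteroendocrine marker sum. Per 1000 cpm of that sum Tph1 was 112 to 161 cpm in GUCY2Chi libraries, where its absolute level spread 4.35-fold. In GUCY2Cmed libraries it was 16.3 to 114 cpm, so the ranges overlapped by the library of mouse 7 alone, which had the lowest marker sum (35.2 cpm). Slc18a1 was lower on this scale in GUCY2Chi libraries, at 18.1 to 38.6 against 73.9 to 472 cpm, and so was Gch1, at 18.0 to 29.3 against 123 to 1203 cpm. Ddc (47.3 to 121 against 1767 to 16483 cpm) and Qdpr (20.0 to 38.6 against 619 to 5902 cpm) were lower too. The marker sum of GUCY2Cmed libraries was only 35.2 to 202 cpm, so these values do not give a level per enteroendocrine cell. The most abundant marker of the enteroendocrine list in GUCY2Chi cells was Chga (9753 ± 5643 against 25.7 ± 10.6 cpm; SD, n = 5 each). Chgb, which belongs to the enterochromaffin list and not to this sum, was at 24626 ± 16264 against 63.6 ± 16.8 cpm (SD, n = 5 each). Both encode granule proteins. The raw Tph1 count was 0.225 to 0.656 times that of Chga in GUCY2Chi and 0.0964 to 0.288 times in GUCY2Cmed cells.

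Mast cells and platelets also carry serotonin. Of 10 mast cell markers 2 were abundant enough to be tested, and the sum was 6.35 to 23.2 cpm in GUCY2Chi and 1.37 to 4.77 cpm in GUCY2Cmed libraries. Kit, a receptor also found on other cells, was higher at 15.3 ± 6.83 against 2.80 ± 1.22 cpm (SD, n = 5 each; log2 fold change 2.45, edgeR adjusted p = 0.00138). Gata2, the other marker tested, was at 0 to 1.41 cpm in GUCY2Chi and at 0 in every GUCY2Cmed library. It did not pass (edgeR adjusted p = 0.0242). Tpsb2 was at 0 to 0.470 cpm in GUCY2Chi and 0 to 0.144 cpm in GUCY2Cmed libraries. The proteases Mcpt1, Mcpt2, Mcpt4 and Cpa3 and the IgE receptor subunit Ms4a2 were at 0 in every GUCY2Chi library, and Fcer1a and Cma1 had no count in any library. The sum of 6 platelet markers was at most 1.08 cpm. Proliferation markers were lower in GUCY2Chi cells for 9 of 12 genes, at sums of 102 to 270 against 334 to 774 cpm. Goblet, tuft, leukocyte, glial and forebrain neuron markers had no gene past the threshold, although their sums varied widely, from 32.2 to 1271 cpm in GUCY2Chi and from 14.4 to 706 cpm in GUCY2Cmed libraries for the 10 forebrain genes. The goblet sum was 23370 cpm in the GUCY2Chi library of mouse 2 and 2996 to 9724 cpm in the others of that group. In GUCY2Cmed libraries it was 4829 to 12992 cpm. Among 6 stroma and endothelium markers 2 were higher, Col1a2 and Pecam1, at a summed level of at most 8.19 cpm.

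Levels of different genes were compared as normalized cpm per kilobase of the gene length in the table. In GUCY2Cmed cells the order was led by Maoa at 758 ± 107, Maob at 175 ± 11.6, Ddc at 124 ± 28.4 and Qdpr at 86.2 ± 19.0 cpm per kilobase (SD, n = 5). Spr (36.3), Slc6a4 (35.9), Pts (11.8), Gch1 (5.24), Slc18a1 (3.51) and Tph1 (0.644) followed. Neighbours in that order whose ranges overlapped were Ddc and Qdpr, Spr and Slc6a4, and Gch1 and Slc18a1. Breakdown genes therefore stood at the top of the GUCY2Cmed order and Tph1 at its end.

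In GUCY2Chi cells Tph1 led at 427 ± 186 cpm per kilobase, with Ddc at 280 ± 135 and Qdpr at 269 ± 93.8 (SD, n = 5). Maoa (139), Slc18a1 (94.8), Gch1 (62.9), Maob (42.8), Spr (20.0), Pts (13.3) and Slc6a4 (7.95) came next. The ranges of all neighbours in this order overlapped, so it is firm only between genes far apart in it. The deposited FPKM rest on other, mostly shorter gene lengths and gave the same first 3 genes in GUCY2Chi cells, but placed Slc18a1 before Maoa and Pts before Spr. In GUCY2Cmed cells FPKM placed Ddc before Maob and Slc18a1 before Gch1. The raw count of Maoa was 575 to 1197 times that of Tph1 in GUCY2Cmed cells and 0.0296 to 1.52 times in GUCY2Chi cells, with the value over 1 in mouse 15.

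**Figure D4:**
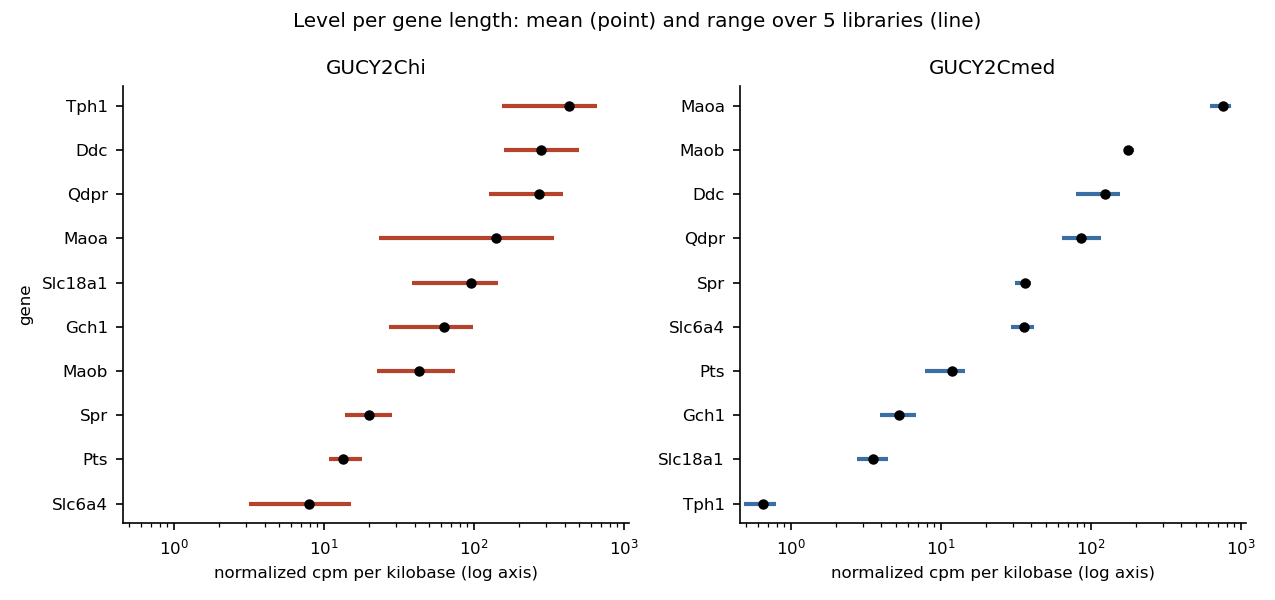
Normalized cpm per kilobase of gene length (log axis) for the 10 genes, ordered by their mean in GUCY2Chi (left) and in GUCY2Cmed cells (right), with points at the mean and lines over the range of 5 libraries. Tph1 is at the top on the left (427) and at the bottom on the right (0.644), and Maoa leads on the right (758).

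The rest of the pathway was read from 7 lists with 55 genes, of which 37 were tested, 7 were higher and 5 were lower in GUCY2Chi cells. Over all genes tested the shares were 13.9% higher and 8.79% lower, so these counts do not set the lists far apart from other genes. By list, the largest positive medians of the log2 fold change were 2.28 for the kynurenine route (4 genes tested) and 2.23 for other monoamine transport (5 genes tested). The lowest was -1.65 for conversion beyond monoamine oxidase (8 genes tested), against 0.09 over all genes tested. In the kynurenine list Tdo2 and Kmo had at most 5 and 3 reads in any GUCY2Cmed library. Both were over 0.5 cpm in GUCY2Chi libraries alone, and so were tested only through the group where they were high. Their direction, and their part in the kynurenine median, was therefore fixed by the filter. The same held for the receptor Htr1d, which with Tdo2 is among the 7 higher genes. The count of lower genes was sensitive to the fit, and is given under several in the closing section. Without the GUCY2Chi libraries of mice 12 and 15 it was 14, and the count of higher genes was 9. In that fit 14.4% of all genes tested were lower and 17.9% were higher.

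Tryptophan supply was divided, with 1 of 6 genes higher, 2 lower and a median of -0.83. Slc7a5, the light chain of the LAT1 amino acid exchanger, was at 13.3 ± 3.95 against 3.21 ± 0.861 cpm (SD, n = 5 each; log2 fold change 2.05, edgeR adjusted p = 3.07e-04). Its heavy chain partner Slc3a2 was lower, at 295 ± 148 against 866 ± 101 cpm (-1.56, adjusted p = 0.00355), a call kept in 5 of the 10 fits without 1 library. Slc7a8, the basolateral LAT2 light chain, was lower at 52.7 ± 24.1 against 213 ± 65.0 cpm (-2.01, adjusted p = 0.00108). Slc6a19, the main apical carrier of neutral amino acids, overlapped between groups, at 240 to 498 and 333 to 925 cpm.

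Of the 4 other genes of tetrahydrobiopterin handling, Pcbd1, which dehydrates the spent cofactor before Qdpr acts, was higher at 158 ± 32.0 against 67.0 ± 7.25 cpm (SD, n = 5 each; log2 fold change 1.24, edgeR adjusted p = 4.53e-04). Gchfr (-1.09, adjusted p = 0.0210) and Pcbd2 (-0.26, adjusted p = 0.384) did not pass. Without the GUCY2Chi libraries of mice 12 and 15 Gchfr passed as lower (-1.65, edgeR adjusted p = 9.57e-04), and Pcbd2 did not (adjusted p = 0.160). For both genes these libraries were the highest of their group, so larger differences follow from leaving them out. Pcbd1 and Qdpr, which act in turn on the spent cofactor, were thus both higher in GUCY2Chi cells.

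Other enzymes that use tetrahydrobiopterin were measured through 7 genes, of which 4 were tested. Tph2, the tryptophan hydroxylase of neurons, was at most 0.189 cpm in any library, so nearly all hydroxylase transcript was Tph1. Th, tyrosine hydroxylase of the dopamine route, was at 69.7 ± 40.7 against 0.333 ± 0.482 cpm (SD, n = 5 each; log2 fold change 7.70 ± 0.87 SE, edgeR adjusted p = 8.93e-05). No GUCY2Cmed library held more than 14 Th reads, and those of mice 12 and 15 held 0, so the size of this fold change is uncertain. The raw Th count was 0.0133 to 0.0384 times that of Tph1 in GUCY2Chi libraries. Nos2, the inducible nitric oxide synthase, did not pass (3.87 ± 2.88 against 37.6 ± 42.3 cpm, adjusted p = 0.0117), nor did Agmo, an ether lipid oxidase (69.6 ± 63.7 against 238 ± 59.8 cpm, adjusted p = 0.0268). Without the GUCY2Chi libraries of mice 12 and 15 Agmo passed as lower (-3.10, edgeR adjusted p = 9.65e-05), and Nos2 did not (adjusted p = 0.0110). These libraries were the highest of their group for both genes, so larger differences follow from leaving them out.

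Among 7 other monoamine transporters, 5 were tested, 2 were higher and none was lower. Beside Slc18a2, this was Slc29a4, the plasma membrane monoamine transporter PMAT, at 23.4 ± 8.58 against 0.656 ± 0.295 cpm (SD, n = 5 each; log2 fold change 5.15 ± 0.44 SE, edgeR adjusted p = 1.49e-05). This low-affinity carrier had the opposite direction from Slc6a4, and no GUCY2Chi library (11.0 to 34.7 cpm) overlapped the GUCY2Cmed range (0.150 to 0.855 cpm).

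Conversion after monoamine oxidase, or beside it, was measured through 10 genes, of which 8 were tested, 2 were lower and none was higher. Aldh2, which oxidises the aldehyde that monoamine oxidase forms, was lower at 80.2 ± 25.3 against 261 ± 50.1 cpm (SD, n = 5 each; log2 fold change -1.70, edgeR adjusted p = 3.22e-04). Aldh1b1, a related mitochondrial enzyme, was lower at 466 ± 236 against 1751 ± 348 cpm (-1.91, adjusted p = 0.00175). Aldh1a1 (-2.34, adjusted p = 0.0146), the sulfotransferase Sult1b1 (-2.14, adjusted p = 0.0351) and the aldehyde reductase Akr1a1 (-0.86, adjusted p = 0.0130) did not pass, although no GUCY2Chi library overlapped the GUCY2Cmed range for any of them. Aldh1a1 and Sult1b1 passed without the GUCY2Chi libraries of mice 12 and 15, at -4.15 (adjusted p = 3.38e-06) and -4.31 (adjusted p = 2.38e-06), as Maoa did. Akr1a1 passed in that fit too, at -1.07 (adjusted p = 0.00161). The libraries left out were the highest of their group for each of these genes, so larger differences follow from leaving them out. Aanat, on the route to melatonin, was at most 0.0720 cpm, and Asmt had no count.

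The kynurenine route competes for tryptophan, and 1 of its 7 genes was higher. Tdo2, the tryptophan dioxygenase best known from liver, was at 8.04 ± 7.61 against 0.0891 ± 0.156 cpm (SD, n = 5 each; log2 fold change 6.28 ± 0.98 SE, edgeR adjusted p = 7.57e-04), and all 5 GUCY2Chi libraries (1.89 to 21.1 cpm) were above the GUCY2Cmed range. No GUCY2Cmed library held more than 5 Tdo2 reads, and those of mice 2, 7 and 14 held 0. The size of this fold change is therefore uncertain, and Tdo2 was tested only because of its GUCY2Chi levels. Ido1, the dioxygenase induced by interferon, overlapped between groups, at 15.6 to 351 and 5.54 to 53.5 cpm.

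Of 14 serotonin receptors 6 were tested, and Htr1d, an inhibitory receptor, was the single gene that passed (edgeR adjusted p = 0.00173). It was at 0.252 to 3.31 cpm in GUCY2Chi libraries and had 0 or 1 read in each GUCY2Cmed library, too few for a fold change. Htr4, the receptor tied to gut motility, was at 0.258 ± 0.116 against 0.803 ± 0.464 cpm (SD, n = 5 each; adjusted p = 0.0387). Htr3b had no count. The summed receptor level did not exceed 11.4 cpm in any library, so most receptors were at the limit of what this depth can show.

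**Figure D5:**
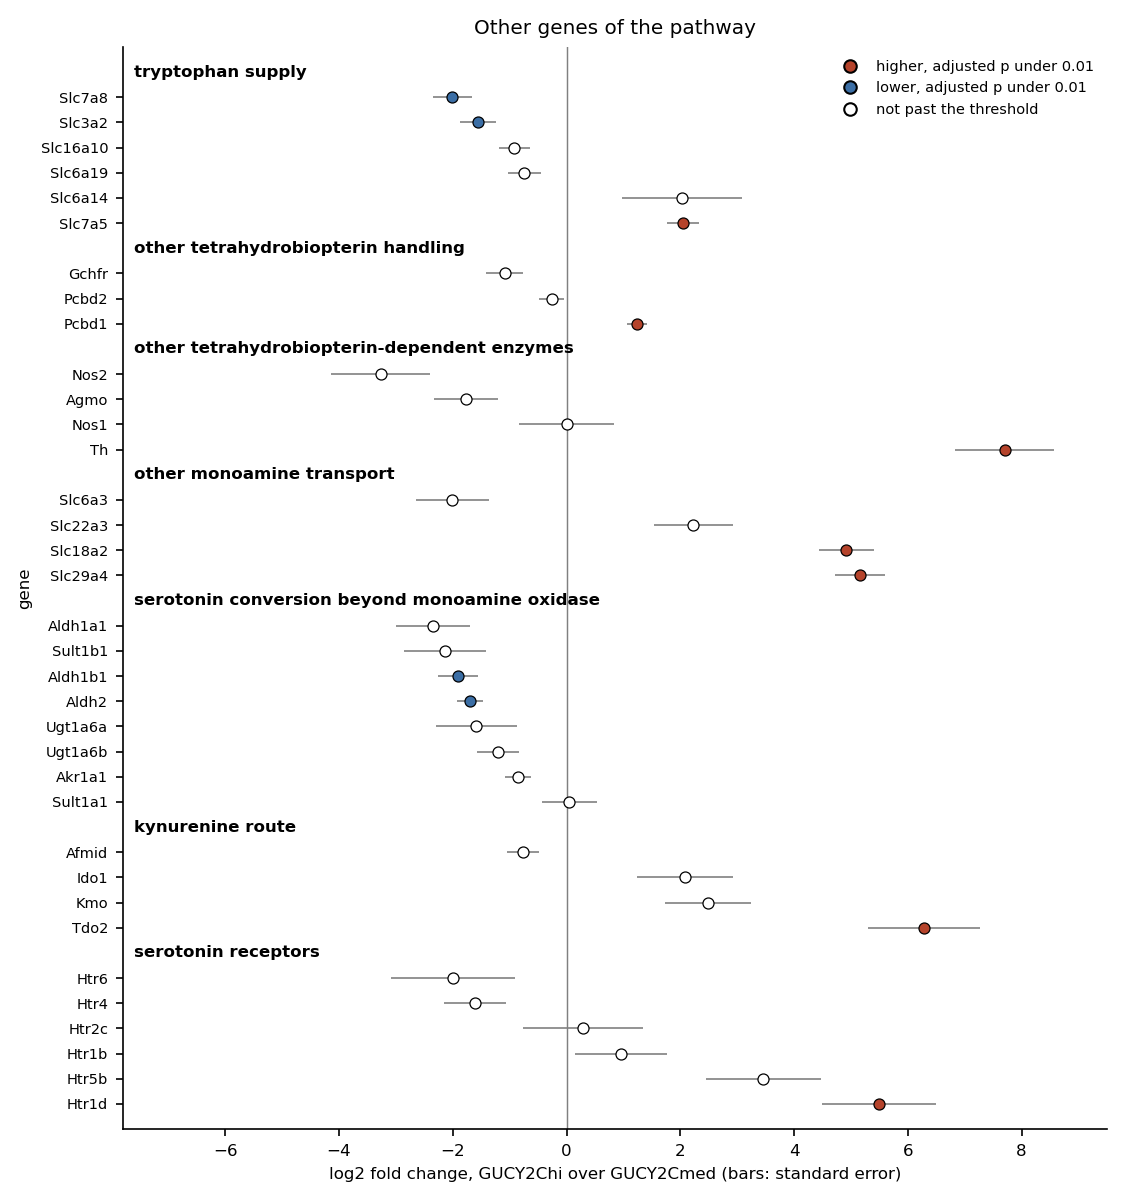
Log2 fold change of GUCY2Chi over GUCY2Cmed (bars, standard error) for 35 of the 37 tested genes of the 7 other pathway lists, sorted within each list, with filled points at an adjusted p under 0.01. Th (7.70), Tdo2 (6.28), Slc29a4 (5.15) and Slc18a2 (4.92) lie far to the right, and none of the genes of conversion beyond monoamine oxidase is filled on that side. The positions of Th and Tdo2 rest on at most 14 and 5 reads per GUCY2Cmed library.

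The genes nearest in pattern to 4 of the 10 were found by the root mean square (RMS) difference of centred log2 cpm over the 10 libraries, among 9973 genes with at least 5 cpm on average. For Tph1 they were Gcg (proglucagon, RMS 0.40) and Scgn (secretagogin, 0.44), followed by Cyp2j12, Prrx2 and Gm34701. Cyp2j12, Prrx2 and Gm34701 were at 0 in all GUCY2Cmed libraries, where their log2 cpm came from the 0.5 counts added before the log. For Slc18a1 they included Rpp25 (0.25), Hepacam2 (0.34), Agr3 (0.35) and Slc35g2 (0.36). Closest to Maoa were Slc26a3, a chloride and bicarbonate exchanger of the brush border (0.18), Plekhf1 (0.18), Creb3l3 (0.19), Chp2 (0.21) and Hkdc1 (0.21). Slc6a4 was closest to the gene ENSMUSG00000073481, whose symbol the table shows as a date (0.15), and to Cgref1 (0.16), Tesk2 (0.18), Flvcr1 (0.19) and Abhd6 (0.20).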

How the data were processed

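RNA of GUCY2Chi and GUCY2Cmed cells was measured in 10 libraries, 5 per group, grouped by the labels, where GUCY2Cmed appears as Medium and as Lo. The read counts per gene, as deposited, are unnormalized whole numbers, made by the sequencing company from paired-end reads of NEBNext Ultra II libraries mapped with STAR. The counting tool and its use of strand are not given in the sources used here. Counts on genes totalled 13090212 to 13520800 per GUCY2Chi library and 10903958 to 15307932 per GUCY2Cmed library. The lowest count of any of the 10 genes was 185 reads in GUCY2Chi libraries (Slc6a4) and 32 in GUCY2Cmed libraries (Tph1). The FPKM values, as deposited by the authors, were used only to order levels. The 10 further normalized columns per sample were not used, nor were the authors' tables of fold changes and p-values, made with limma 3.40.6 and edgeR 3.26.8 per the labels. The labels name the build mm9, but 10 of the 10 genes lie where GRCm38 places them and 0 where NCBIM37 does, so positions are on GRCm38.

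A gene was tested if 3 or more libraries held over 0.5 cpm, as 15703 did. Groups were compared in R 4.3.3 by the quasi-likelihood test of edgeR 4.0.16 with TMM factors (0.8214 to 1.258) but without a mouse term, taking a Benjamini-Hochberg adjusted p under 0.01 as the threshold. Standard errors are the absolute log2 fold change over the square root of F. The biological coefficient of variation was 0.458. Normalized cpm are counts over the TMM-scaled library size. Tested on simulated data for this comparison (15703 genes, 200 changed), it called 82 of the 16-fold and 55 of the 4-fold changes and 2 unchanged genes. Alternatives were limma-voom (limma 3.58.1), DESeq2 1.42.0, the mouse number as a block, other scalings and filters, and libraries left out. Counts for the other pathway lists under these alternatives were chosen after seeing the data. The exact permutation tests were made in Python 3.11.15 with scipy 1.17.1, numpy 2.4.6 and pandas 2.3.3, and figures with matplotlib 3.10.9. The members and lists were chosen with earlier results of these data known. Named genes are all 10 members, tested genes of the 7 pathway lists, with those past the threshold before others, marker genes of highest level or at 0, and for 4 members the 5 nearest genes in pattern. Values of a few genes are left out of the text, while list counts and medians cover them.

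The study sorted 5 mice into both groups, so libraries with the same number were taken as the same mouse. The correlation of their deviations from the group means was -0.123, -0.254, 0.279, -0.132 and 0.0754 for mice 2, 7, 12, 14 and 15. With 1 library per mouse and group, p-values measure the spread between animals and between sorts together.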

Additional observations from a re-analysis of the deposited data

How the results depend on the processing

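None of the 10 genes changed direction in any of the 22 alternatives run for each. Tph1, Gch1, Qdpr, Slc18a1 and Maob passed in all 22 and Pts in none. Ddc was gained in 6, among them DESeq2 (1.18, adjusted p = 0.00103), and Maoa in 6, among them DESeq2 (-2.40, adjusted p = 8.95e-04) and limma-voom (-3.24, adjusted p = 0.00548). Spr was lost in 9 and Slc6a4 in 5. Leaving out each library in turn gave 4 to 5 genes higher and 1 to 4 lower, with 1 lower (Maob) without the GUCY2Chi library of mouse 2 or 7 or the GUCY2Cmed library of mouse 2, 12 or 15. The cause was not tested.

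With the mouse number as replicate block, edgeR gave 4 genes higher and 3 lower, the same genes as without it, and 1294 higher and 779 lower among all genes, against 2186 and 1381. Limma-voom with the block added Maoa.

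For the other pathway lists, 5 genes lower in edgeR became 11 in limma-voom with and without the block, 14 in DESeq2, 14 without the GUCY2Chi libraries of mice 12 and 15, 11 without both libraries of these mice, 17 at an adjusted p under 0.05, and 4 to 9 with each library left out in turn, the 9 without the GUCY2Chi library of mouse 12 or 15. The 7 genes higher became 3 where at least 10 counts in every library were required, since genes below 10 counts in any library are then not tested, and were 7 to 8 with each library left out.

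Without TMM scaling the median log2 fold change of all genes was 0.39 instead of 0.09, and 83.9% of calls were higher (2909 against 560) instead of 61.3%. Spr was then at -0.60 (adjusted p = 0.0171) and Ddc at 1.43 (adjusted p = 0.00431). Over all genes, DESeq2 called 2235 lower, the fit without the GUCY2Chi libraries of mice 12 and 15 called 2186 lower, and single libraries left out gave 512 to 1609 lower. Depth limits the receptors and other genes near 1 cpm, not the 10 genes.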
